A study of Mus musculus with 6 samples.

Results

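The genes described here are 10 secreted proteases of the ADAMTS family (a disintegrin and metalloproteinase with thrombospondin motifs): Adamts1, Adamts2, Adamts4, Adamts5, Adamts6, Adamts7, Adamts9, Adamts10, Adamts12 and Adamts15. They were taken by symbol from the 39179 genes of the RPKM table, which holds 19 ADAMTS proteases in all. RPKM is the number of reads on a gene scaled to its length and to the reads of the library. The genes were chosen by symbol with the RPKM of these same libraries known, the response of Adamts1 to YKL-05-093 included. Their levels and calls are therefore a description of these libraries and not independent evidence of a direction.

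The libraries came from Ocy454 cells, a mouse osteocyte-like line of which 1 single-cell subclone was used, so all groups share that clone. Cells were grown at 33 °C, kept for 14 days at 37 °C and treated for 4 h with vehicle, with 1 nM parathyroid hormone (PTH 1-34) or with 0.5 µM YKL-05-093, an inhibitor of the salt inducible kinases (SIKs) that also binds other kinases. The labels name 1 vehicle, phosphate-buffered saline with 25 mM HCl, whereas the study's supplementary methods give DMSO as the solvent of its compounds for cell work. Whether the vehicle libraries matched the solvent of YKL-05-093 is therefore not known. Each condition had 2 libraries, with 17505798 to 27983585 reads recovered from the RPKM, and the study's methods call them experimental duplicates without saying whether they were separate cultures, so p-values measure only the spread between these libraries. The comparisons ask whether PTH or YKL-05-093 changes the mRNA of these proteases, and whether the 2 treatments differ.

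Of 12 osteocyte and osteoblast markers, 9 reached 0.5 RPKM in at least 2 libraries. Sost, which encodes the osteocyte product sclerostin, and Fgf23 were at or under 3 reads in all 6 libraries, and Mepe did not exceed 0.136 RPKM. Dmp1, an osteocyte matrix gene, lay between 0.376 and 1.15 RPKM. Phex, of the same list, lay between 0.764 and 4.93 RPKM, and Pdpn between 53.1 and 171 RPKM. Sost, Fgf23, Mepe and Dmp1 were thus low or absent, while Pdpn and osteoblast matrix genes such as Col1a1 (259 to 430 RPKM) were abundant. The summed RPKM of marker lists for chondrocytes, adipocytes, haematopoietic, endothelial and muscle cells lay between 0.481 and 4.49 in every library.

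ADAMTS enzymes are made as inactive proenzymes, are trimmed by furin-like convertases, and cut proteins of the extracellular matrix. Adamts1, Adamts4, Adamts5, Adamts9 and Adamts15 are known for cutting the large proteoglycans aggrecan and versican, and Adamts4 and Adamts5 are the aggrecanases best known from cartilage. Adamts2 removes the amino-terminal propeptide of fibrillar procollagens, Adamts7 and Adamts12 cut cartilage oligomeric matrix protein, and Adamts6 and Adamts10 act on or bind fibrillin microfibrils. Tissue inhibitors of metalloproteinases, Timp3 above all, block these enzymes, and the receptor Lrp1 removes several of them from the cell surface. In bone, PTH acts through a receptor that raises cyclic AMP, and protein kinase A then phosphorylates and restrains SIK2. In Ocy454 cells the study found no such phosphorylation of SIK3 with PTH.

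Adamts1 and Adamts5 are neighbours on mouse chromosome 16 (GRCm38). Adamts1 (ENSMUSG00000022893) lies on the minus strand at chr16:85793827-85803113 and Adamts5 on the same strand at chr16:85856173-85901828, with a gap of 53059 bases. RefSeq promoter windows of 300 bases, from 250 before to 50 after the start site, were found for 4 of the 10 members (Adamts1, Adamts2, Adamts9 and Adamts12; GRCm38.p6). Those of Adamts1 and Adamts12 are shown 5′ to 3′ along the gene because both hold TGACG, the core of the cyclic AMP response element, and Adamts1 was called in a comparison while Adamts12 was not. Capitals mark that core in both sequences and, in the first, a TATA box motif (TATAAA). The first is the minus strand of chr16:85803064-85803363 and the second the plus strand of chr15:11064523-11064822.
Adamts1: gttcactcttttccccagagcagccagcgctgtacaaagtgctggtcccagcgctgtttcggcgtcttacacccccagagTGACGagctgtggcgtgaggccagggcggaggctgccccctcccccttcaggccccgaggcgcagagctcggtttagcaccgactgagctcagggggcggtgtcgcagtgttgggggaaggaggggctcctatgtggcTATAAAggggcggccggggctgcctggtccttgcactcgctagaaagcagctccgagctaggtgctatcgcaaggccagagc
Adamts12: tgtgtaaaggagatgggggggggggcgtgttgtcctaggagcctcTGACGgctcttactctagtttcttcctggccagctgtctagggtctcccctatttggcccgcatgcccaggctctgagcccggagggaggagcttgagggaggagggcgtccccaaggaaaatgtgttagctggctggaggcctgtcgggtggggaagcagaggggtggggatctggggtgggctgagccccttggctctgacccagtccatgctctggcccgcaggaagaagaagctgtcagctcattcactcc

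Searched on both strands, TGACG occurred in the windows of Adamts1 (position -170 from the start site), Adamts9 (-218) and Adamts12 (-205) and not in that of Adamts2. It occurred in 21% of all 27025 RefSeq windows of this length. TATAAA, searched for after the sequences were seen, was found in the Adamts1 window alone of the 4 (position -32), and in 14.2% of all windows. Neither the full element TGACGTCA, which contains the core and was present in 1.88% of all windows, nor the AP-1 motif TGANTCA, present in 7.93%, occurred in the 4 windows. These matches describe letters in the windows and no binding was measured.

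Adamts1 was the most abundant member in vehicle by mean RPKM, followed by Adamts12, Adamts2, Adamts9, Adamts4, Adamts10, Adamts5, Adamts6, Adamts7 and Adamts15. The levels ran from 12.5 ± 2.56 RPKM for Adamts1 to 0.0265 ± 0.00340 RPKM for Adamts15 (SD, n = 2). The vehicle libraries of neighbours in this order did not overlap between Adamts12 and Adamts2, Adamts5 and Adamts6, Adamts6 and Adamts7, or Adamts7 and Adamts15. The other neighbours overlapped and did not differ beyond their spread. The gene lengths used by the authors, recovered from the values as 4622 to 14360 bases, matched the merged exon length of the annotation used here for 0 of 10 members, which limits comparisons of level between genes.

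**Figure D1:**
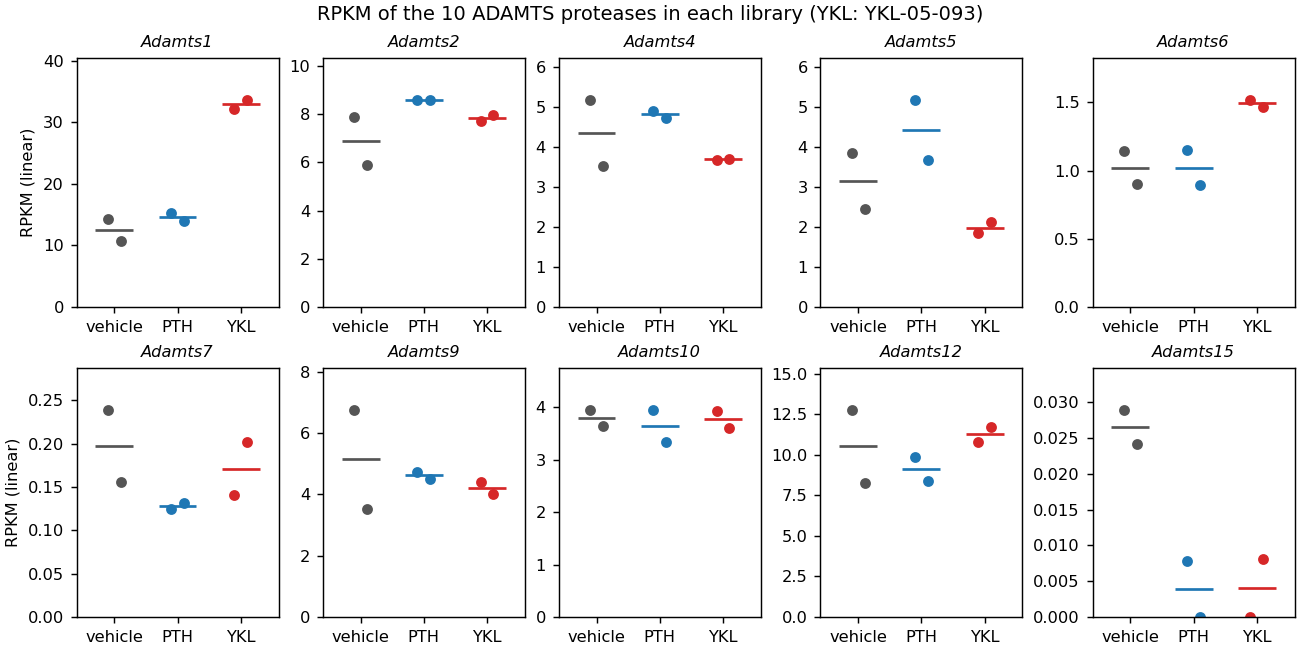
RPKM of each of the 10 members (linear axes from 0, 1 panel per gene with its own scale) in vehicle, PTH and YKL-05-093. Points are single libraries and lines are means of 2 libraries; Adamts1 stands at 32.2 and 33.7 RPKM with YKL-05-093 against 10.7 to 15.2 RPKM in the other 4 libraries.

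A member was tested when it reached 0.5 RPKM in at least 2 of the 6 libraries, which 8 of the 10 did with 82 to 4132 reads per library. Adamts7 and Adamts15 did not. Fold changes are on the scale of log2(RPKM + 0.1), and calls needed an adjusted p below 0.05 in limma and a change of more than 2-fold. With PTH, 0 of 8 members were called, against 1.91% of all 14261 genes tested. Voom on the recovered reads also called 0 there. With YKL-05-093, 1 of 8 members was called against 0.666% of all 14255 genes, and that member, Adamts1, was higher, as were 0.393% of all genes. YKL-05-093 against PTH gave 2 of 8 members (1.21% of all genes): Adamts1 higher (0.470% of all genes) and Adamts5 lower (0.737%). The median log2 fold change of the 8 members was 0.08 for PTH, 0.06 for YKL-05-093 and -0.04 for YKL-05-093 against PTH, beside -0.03, -0.04 and -0.01 over all genes tested.

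At an unadjusted p under 0.05 from limma there were 0 of 8 members for PTH against vehicle, 3 of 8 for YKL-05-093 against vehicle and 5 of 8 for YKL-05-093 against PTH, beside 13.3%, 8.66% and 22.3% of all genes tested, and voom gave the same member counts.

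The 2 libraries of a treatment stood entirely above or below the 2 of the other for 1 of 8 members with PTH against vehicle (Adamts2), while 43.1% of all genes did so. For YKL-05-093 against vehicle this held for 3 of 8 (Adamts1, Adamts5 and Adamts6; all genes 37.8%). For YKL-05-093 against PTH it held for 7 of 8, all but Adamts10, with 50% over all genes. With 2 libraries against 2, the smallest p an exact two-sided permutation test of a single gene can give is 0.333.

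**Figure D2:**
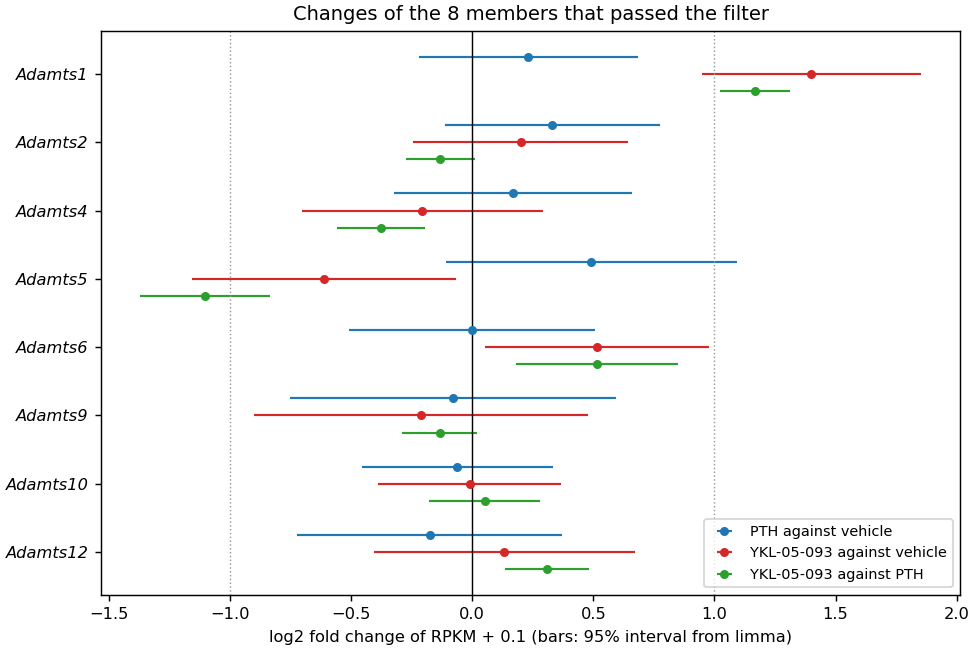
Log2 fold change of RPKM + 0.1 (horizontal axis) for the 8 members tested in the 3 comparisons; points are limma estimates, bars their 95% intervals, and dotted lines mark 2-fold changes. The intervals of Adamts1 lie above 0 for both YKL-05-093 comparisons and that of Adamts5 lies below 0 for both.

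Among the proteases of aggrecan and versican, Adamts1 showed the largest fitted change of the 8 members tested. Its RPKM was 14.3 and 10.7 in the vehicle libraries, 15.2 and 14.0 with PTH, and 32.2 and 33.7 with YKL-05-093. Both YKL-05-093 libraries were above all 4 others, while 1 PTH library fell inside the vehicle range and 1 above it. The reads behind these values were 1486 to 1949 in the vehicle and PTH libraries and 3860 and 4132 with YKL-05-093, and in libraries of whole cultures a change in RNA per cell and a change in the number of cells that express a gene cannot be told apart. Adamts1 rose 2.64-fold with YKL-05-093 (log2 fold change 1.40, SE 0.19, 95% interval 0.95 to 1.85, adjusted p = 0.034 from limma). With PTH its log2 fold change was 0.23 (SE 0.19, interval -0.22 to 0.69, adjusted p = 0.702). The direct test of YKL-05-093 against PTH gave a log2 difference of 1.17 (SE 0.07, adjusted p = 1.39e-08), a 2.25-fold higher level.

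The study placed Adamts1 among the genes raised by YKL-05-093 alone. It checked that placement by quantitative reverse transcription PCR on separately generated samples, which are not part of the libraries described here. The Adamts1 call against vehicle held in 8 of 14 alternatives. It was lost with a pseudocount of 1 RPKM (adjusted p = 0.0521), with the filter at 0.1 RPKM (0.0519) or absent (0.2), and with the spread tied to the mean value (0.105). It was also lost without YKL-05-093 library 1 (adjusted p = 0.555) or library 2 (0.384), while the fold change stayed between 1.19 and 1.61 on the log2 scale when any 1 library was left out. The call against PTH held in 12 of 14 and was lost without PTH library 1 (adjusted p = 0.126) or 2 (0.12). Of the 5 endothelial markers, only Kdr reached 0.5 RPKM in 2 libraries, and Cdh5 was at or under 3 reads throughout. The 5 markers summed to 0.820 to 1.29 RPKM in vehicle, 1.34 to 1.58 with PTH and 2.08 to 2.34 with YKL-05-093. Mean Kdr was 0.529 RPKM in vehicle, 0.936 with PTH and 1.58 with YKL-05-093. Means of Tek (0.347, 0.253 and 0.426), Vwf (0.127, 0.173 and 0.151) and Pecam1 (0.0540, 0.0995 and 0.0558) stayed under 0.5 RPKM. The 6 chondrocyte markers, with Acan at or under 3 reads, summed to 2.11 to 2.71, 3.63 to 3.67 and 3.73 to 3.82 RPKM. All libraries came from 1 single-cell subclone, and a link between these markers and the Adamts1 result was not tested.

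Adamts5, the other gene of the chromosome 16 pair, had its lowest level in the libraries where Adamts1 had its highest. Its RPKM was 3.84 and 2.46 in vehicle, 5.18 and 3.68 with PTH, and 1.85 and 2.11 with YKL-05-093. The YKL-05-093 libraries were the lowest of the 6 and did not overlap either other group, while vehicle and PTH overlapped. The level with YKL-05-093 was 0.465 times that with PTH (log2 difference -1.1, SE 0.13, interval -1.37 to -0.84, adjusted p = 1.62e-05 from limma). Against vehicle neither treatment was called: the log2 fold change was 0.49 for PTH (SE 0.26, interval -0.11 to 1.09, adjusted p = 0.494) and -0.61 for YKL-05-093 (SE 0.23, interval -1.16 to -0.07, adjusted p = 0.493).

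The Adamts5 difference between treatments was called in 7 of 14 alternatives. With a pseudocount of 1 RPKM the difference was -0.85, under the 2-fold limit. Without a filter the adjusted p was 0.116, and in 1 fit of all 6 libraries it was 0.0987. Leaving out any 1 library ended the call, with adjusted p of 0.164 and 0.124 without PTH library 1 or 2 and 0.0799 and 0.0593 without YKL-05-093 library 1 or 2; the log2 difference then lay between -1.35 and -0.86.

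Adamts4, an aggrecanase on the plus strand of chr1:171250421-171260637, had 5.19 and 3.51 RPKM in vehicle, 4.91 and 4.73 with PTH, and 3.68 and 3.69 with YKL-05-093. Both treated groups lay within the vehicle range. It was lower with YKL-05-093 than with PTH by a log2 difference of -0.38 (SE 0.09, adjusted p = 0.00868 from limma), which is under the 2-fold limit.

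Adamts9, a protease of versican on the minus strand of chr6:92772699-92943492, had 6.76 and 3.52 RPKM in vehicle, 4.73 and 4.51 with PTH and 4.40 and 4.02 with YKL-05-093. The treated libraries all lay inside the vehicle range. The log2 fold changes were -0.08 for PTH (adjusted p = 0.946) and -0.21 for YKL-05-093 (adjusted p = 0.9), with an interval of -0.90 to 0.48 for YKL-05-093. Its exons overlap opposite-strand transcripts, and the counting setting for strand is not given in the sources used here.

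Adamts15 (minus strand of chr9:30899155-30922452) was close to the detection limit, with 3 and 4 reads in vehicle, 1 and 0 with PTH, and 0 and 1 with YKL-05-093. A count of 3 reads corresponded to 0.0181 to 0.0289 RPKM, so no difference was detectable at this depth.

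Adamts2, the procollagen N-proteinase on the plus strand of chr11:50602084-50807573, had 7.88 and 5.91 RPKM in vehicle, 8.61 and 8.60 with PTH and 7.71 and 7.98 with YKL-05-093. Both PTH libraries were above both vehicle libraries, while the YKL-05-093 libraries straddled the upper one. The log2 fold changes were 0.33 for PTH (SE 0.19, limma, adjusted p = 0.548) and 0.20 for YKL-05-093 (adjusted p = 0.857), and the difference between treatments was -0.13 (adjusted p = 0.266).

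Of the pair that cuts cartilage oligomeric matrix protein, Adamts12 (chr15:11064790-11349231, plus strand) was expressed and Adamts7 (chr9:90163069-90208071, plus strand) was low. Adamts12 had 12.8 and 8.23 RPKM in vehicle, 9.83 and 8.38 with PTH and 10.8 and 11.7 with YKL-05-093. All 4 treated libraries fell inside the vehicle range, and the YKL-05-093 libraries were above the PTH libraries. The difference between treatments was 0.31 on the log2 scale (SE 0.08, adjusted p = 0.0236 from limma), under the 2-fold limit, and the fold changes against vehicle were -0.18 (adjusted p = 0.818) for PTH and 0.13 (adjusted p = 0.921) for YKL-05-093. Adamts7 had 0.239 and 0.156 RPKM in vehicle, 0.124 and 0.132 with PTH and 0.140 and 0.202 with YKL-05-093, on 15 to 26 reads per library. It was not tested, and annotated exons of Tbc1d2b overlap it on the opposite strand.

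Both genes of the fibrillin-associated pair were tested and neither was called. Adamts6 lies on the plus strand of chr13:104287835-104496695 and Adamts10 on the plus strand of chr17:33524204-33553782. Adamts6 had 1.14 and 0.901 RPKM in vehicle, 1.15 and 0.896 with PTH, and 1.52 and 1.47 with YKL-05-093. Both YKL-05-093 libraries were above the other 4, whose values were nearly the same in vehicle and PTH. With YKL-05-093 it stood 0.51 higher on the log2 scale than in vehicle (SE 0.20, interval 0.05 to 0.98, adjusted p = 0.498 from limma) and 0.52 higher than with PTH (SE 0.16, adjusted p = 0.0502). Adamts10 had 3.95 and 3.64 RPKM in vehicle, 3.96 and 3.33 with PTH and 3.94 and 3.61 with YKL-05-093. Its 3 groups overlapped, with log2 differences of -0.06, -0.01 and 0.05 in the 3 comparisons (adjusted p = 0.921, 0.995 and 0.847). The 95% intervals for Adamts10 reached from -0.46 to 0.33 for PTH and from -0.39 to 0.37 for YKL-05-093.

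The summed RPKM of the 10 members was 56.2 and 39.1 in vehicle, 53.7 and 48.2 with PTH and 66.2 and 68.5 with YKL-05-093. The YKL-05-093 libraries had the highest sums, at 67.4 ± 1.61 against 47.6 ± 12.1 in vehicle (SD, n = 2). Without Adamts1 the sums were 41.8 and 28.4, 38.5 and 34.3, and 34.1 and 34.8 RPKM, and both treated groups then lay inside the vehicle range. Adamts1 made up 25.5% to 29.0% of the summed RPKM in the vehicle and PTH libraries and 48.6% and 49.2% with YKL-05-093.

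**Figure D3:**
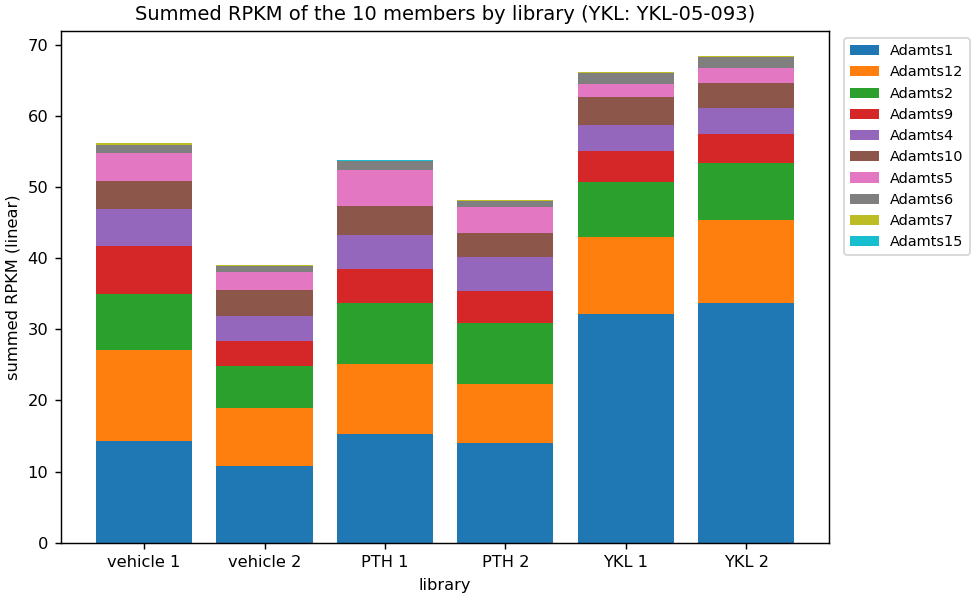
Summed RPKM (linear axis from 0) of the 10 members in each of the 6 libraries, with 1 coloured segment per member in the vehicle order of levels. The Adamts1 segment reaches 32.2 and 33.7 RPKM in the YKL-05-093 libraries, and the summed level is highest there, at 66.2 and 68.5 RPKM.

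The vehicle libraries differed from each other more than the others did, and this bears on every comparison with vehicle. All 10 members were higher in vehicle library 1 than in library 2, as were 9 of 10 between PTH libraries 1 and 2 and 3 of 10 between the YKL-05-093 libraries. These counts include Adamts15, which had only 3 and 4 reads in vehicle and 1 and 0 with PTH. The matching share over all genes was not computed. The median log2 difference over the 8 tested members was 0.48 in vehicle, 0.18 in PTH and -0.03 in YKL-05-093. Over all 14264 genes at or above the filter the vehicle median was 0.06, but over the 3786 genes longer than 5000 bases it was 0.43. With a trend on gene length removed from the values, an alternative chosen after seeing this difference, the members called numbered 0, 1 and 2 in the 3 comparisons, as without it.

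**Figure D4:**
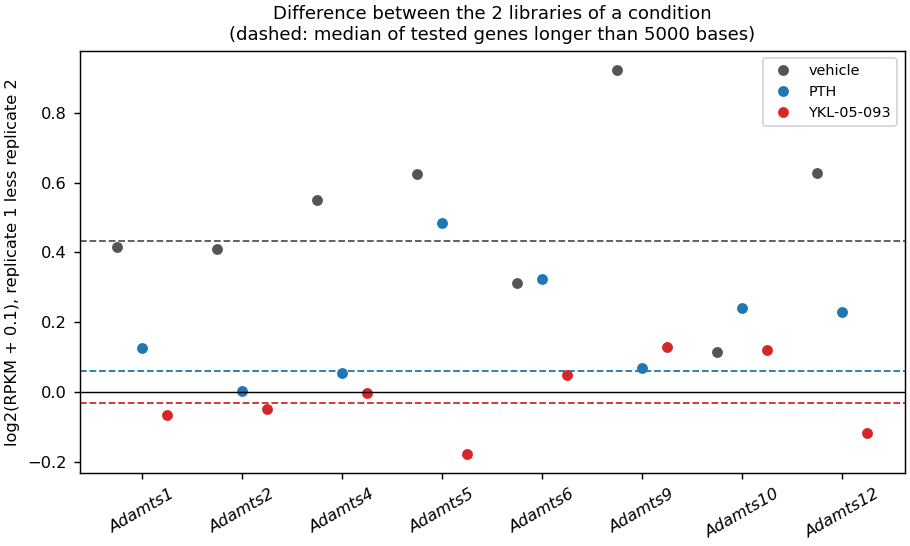
Difference in log2(RPKM + 0.1) between replicate 1 and replicate 2 of each condition (vertical axis) for the 8 tested members; points are members, coloured by condition, and dashed lines are medians of tested genes longer than 5000 bases. All vehicle points are above 0, from 0.12 to 0.92, around a dashed vehicle line at 0.43.

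Of the 9 ADAMTS proteases outside the chosen 10, only Adamts14, Adamts18 and Adamts20 passed the filter, with median log2 differences of -0.79, -0.25 and 0.54 in the 3 comparisons (all genes tested -0.03, -0.04 and -0.01). Adamts18, an orphan protease, had 0.874 and 1.00 RPKM in vehicle, 0.329 and 0.177 with PTH, and 0.561 and 0.729 with YKL-05-093. The 3 groups did not overlap, with PTH the lowest. Adamts18 fell with PTH by a log2 fold change of -1.59 (SE 0.27, adjusted p = 0.032 from limma) and was higher with YKL-05-093 than with PTH by 1.1 (SE 0.26, adjusted p = 0.0104). Against vehicle the YKL-05-093 value was -0.49 (adjusted p = 0.603). Reads for this gene numbered 19 to 158 per library, and the PTH call held in 8 of 14 alternatives and was lost without PTH library 1 (adjusted p = 0.143) or 2 (0.473). The call against PTH held in 6 of 14 and was lost when any 1 library was left out (adjusted p from 0.156 to 0.332).

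None of the 5 tested members of the 7 ADAMTS-like proteins, which share the ancillary domains and lack the protease, was called. Adamtsl3, the most abundant, had 12.1 and 7.44 RPKM in vehicle, 8.09 and 7.20 with PTH, and 7.67 and 7.64 with YKL-05-093, with the groups close together apart from vehicle library 1. The list's median log2 fold change was -0.31 for PTH and -0.13 for YKL-05-093, against -0.03 and -0.04 over all genes tested, and 0.0041 for YKL-05-093 against PTH, against -0.01.

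Among the substrates, aggrecan (Acan) had 0.0189 RPKM at most, on no more than 3 reads, while versican was expressed. Vcan had 4.64 and 1.98 RPKM in vehicle, 4.85 and 5.01 with PTH and 4.04 and 3.55 with YKL-05-093. The PTH libraries were the highest and the YKL-05-093 libraries lay inside the vehicle range. Vcan was lower with YKL-05-093 than with PTH by -0.37 on the log2 scale (SE 0.08, adjusted p = 0.00356 from limma), under the 2-fold limit.

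Of the 12 genes of lecticans, link proteins and hyaluronan synthesis and binding, 4 were tested and 1 was called, and the medians of the 4 were 0.26, 0.05 and -0.22 (all genes tested -0.03, -0.04 and -0.01). Has2, which makes the hyaluronan to which versican binds, had 1.88 and 1.45 RPKM in vehicle, 7.47 and 8.06 with PTH and 3.59 and 3.14 with YKL-05-093. The 3 groups did not overlap, with PTH the highest. Has2 rose 4.49-fold with PTH (log2 fold change 2.17, SE 0.18, adjusted p = 0.00220 from limma) and was lower with YKL-05-093 than with PTH by -1.18 (SE 0.10, adjusted p = 4.88e-07). Its value for YKL-05-093 against vehicle was 0.98 (adjusted p = 0.105). The Has2 calls held in 11 and 12 of 14 alternatives, and both were lost without PTH library 1 (adjusted p = 0.0653 and 0.144) or 2 (0.0818 and 0.134).

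All 6 fibrillar procollagen genes, the substrates of Adamts2, were tested, and Col2a1 was called. Their medians were 0.20, 0.19 and -0.05 in the 3 comparisons, beside -0.03, -0.04 and -0.01 over all genes tested. It had 0.625 and 0.577 RPKM in vehicle, 1.71 and 1.54 with PTH and 0.730 and 0.771 with YKL-05-093. PTH stood apart from both other groups. Col2a1, the cartilage collagen, rose by 1.30 on the log2 scale with PTH (SE 0.18, adjusted p = 0.0148 from limma) and was lower with YKL-05-093 than with PTH by -1.02 (SE 0.14, adjusted p = 0.000134). Each Col2a1 call held in 9 of 14 alternatives. The first was lost without PTH library 1 (adjusted p = 0.386) or 2 (0.326). The second was lost without PTH library 1 (0.184) or 2 (0.166), and without YKL-05-093 library 1, where the difference was -0.98, under the 2-fold limit. Col1a1, the main bone collagen, had 389 and 259 RPKM in vehicle, 430 and 371 with PTH and 328 and 396 with YKL-05-093, and its groups overlapped.

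Of 15 other matrix substrates, 12 were tested and Thbs1 was called with both treatments, and the medians of the 12 were -0.0057, -0.06 and 0.04 (all genes tested -0.03, -0.04 and -0.01). Thbs1 encodes thrombospondin 1, a matrix protein that Adamts1 is known to cut. It had 64.8 and 43.0 RPKM in vehicle, 15 and 16.3 with PTH and 15.3 and 17.0 with YKL-05-093. The 4 treated libraries were all below vehicle and overlapped each other. Thbs1 had a log2 fold change of -1.75 with PTH (SE 0.23, adjusted p = 0.0115 from limma) and of -1.7 with YKL-05-093 (SE 0.23, adjusted p = 0.0318), and the 2 treatments share the vehicle libraries. Their difference was 0.04 (interval -0.11 to 0.20). The PTH call held in 11 of 14 alternatives and was lost without PTH library 1 (adjusted p = 0.345) or 2 (0.306). The YKL-05-093 call held in 8 of 14 alternatives and was lost without YKL-05-093 library 1 (0.520) or 2 (0.165).

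**Figure D5:**
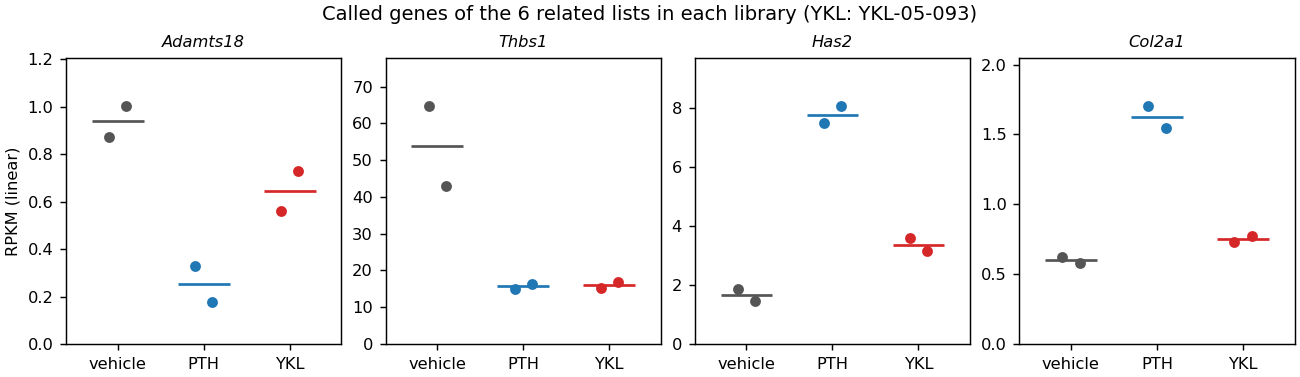
RPKM (linear axes from 0) of the called genes of the related lists, Adamts18, Thbs1, Has2 and Col2a1, in vehicle, PTH and YKL-05-093; points are single libraries and lines are means of 2 libraries. PTH libraries are lowest for Adamts18 and highest for Has2 and Col2a1, while both treatments are low for Thbs1.

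None of the 9 tested genes among 13 inhibitors, convertases, modifiers and clearance receptors was called in any comparison. Their medians were 0.05, -0.04 and -0.16 in the 3 comparisons, beside -0.03, -0.04 and -0.01 over all genes tested. Timp2, the most abundant of them, had 268 and 249 RPKM in vehicle, 272 and 264 with PTH and 265 in both YKL-05-093 libraries, within a narrow range. Timp3 and Lrp1, known for their hold on ADAMTS enzymes, were added to the named genes after their values were seen. Timp3 had 20.4 and 16.6 RPKM in vehicle, 15.5 and 15.3 with PTH and 19.7 and 20.7 with YKL-05-093. The YKL-05-093 libraries overlapped vehicle and were above PTH, by 0.39 on the log2 scale (SE 0.07, adjusted p = 0.000659 from limma), under the 2-fold limit. Timp1 had 62.2 and 106 RPKM in vehicle, 160 and 147 with PTH and 84.5 and 90.9 with YKL-05-093. Both PTH libraries were the highest, and the difference of YKL-05-093 from PTH was -0.80 (SE 0.07, adjusted p = 9.33e-07). The clearance receptor Lrp1 differed by -0.64 (adjusted p = 2.29e-05) in the same comparison, and all 3 differences were under 2-fold.

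The 3 genes whose centred log2(RPKM + 0.1) profile over the 6 libraries was closest to that of Adamts1, of 11874 genes compared, were Fbxo32, Bmf and Pdzrn3. Their root-mean-square differences from it were 0.0825, 0.116 and 0.167 log2 units, beside a median of 0.659 over all genes compared. Fbxo32, a muscle-atrophy ubiquitin ligase subunit, had 5.29 and 3.55 RPKM in vehicle, 5.59 and 4.56 with PTH and 10.4 and 11 with YKL-05-093, highest in the YKL-05-093 libraries. For Adamts5 the closest were Ttc39b, Tgfbr1 and Kitl (0.116, 0.172 and 0.187, median 0.522). Tgfbr1, a receptor for transforming growth factor beta, had 8.64 and 6.03 RPKM in vehicle, 9.12 and 7.96 with PTH and 4.86 and 5.03 with YKL-05-093, lowest in the YKL-05-093 libraries. These genes were chosen for their likeness, so it carries no test.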

How the data were processed

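Ocy454 RNA was sequenced in 6 libraries (vehicle, PTH and YKL-05-093, 2 each). According to the methods, the authors depleted ribosomal RNA, made directional libraries, aligned paired reads to mm10 with STAR, counted them with HTSeq 0.6.0 (Ensembl release 75) and deposited RPKM for each gene. The submitters' processing notes also name CASAVA 1.7. The strand setting of the counting and the gene lengths are not given in the sources used here. RPKM are not counts, so limma 3.58.1 (R 4.3.3) was fitted to log2(RPKM + 0.1), separately for each comparison on its 4 libraries. Genes had at least 0.5 RPKM in 2 of 6 libraries, the prior variance followed a trend on recovered reads, and the Benjamini-Hochberg adjustment covered all genes tested. Whole reads were recovered from the RPKM for all 26214 genes above 0 (tolerance 0.001 reads). Voom ran on these reads as an alternative. Library totals were 17505798 to 27983585 reads, and floors of 3 reads cover counting error only. Alternatives changed the pseudocount, filter, fit, scaling and libraries. The statistics were tested on simulated data. The members, lists and settings were chosen with earlier results of these data known. Named genes were the 10 members, called genes of the lists, up to 4 abundant genes of each list and, for each called member, the 3 genes of closest profile. Positions follow GENCODE M21, and promoter windows come from RefSeq.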

Additional observations from a re-analysis of the deposited data

How the results depend on the processing

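In the main setting 272 and 95 genes were called for PTH and for YKL-05-093, each against vehicle, and 172 for YKL-05-093 against PTH; the members called were 0, 1 and 2, and the genes of the 6 lists called were 4, 1 and 3. For PTH, the genes called numbered 0 without a filter, 160 with the spread tied to the mean value and 441 with the replicate block, and the list genes numbered 2 with a pseudocount of 1 RPKM, 0 without a filter and 2 with the spread tied to the mean value. For YKL-05-093, the genes called numbered 55 with a pseudocount of 1 RPKM, 57 with the filter at 0.1 RPKM, 0 without a filter, 173 in 1 fit of all libraries, 6 with the spread tied to the mean value, 215 with the replicate block and 179 with the length trend removed. Members and list genes called for YKL-05-093 both fell to 0 with a pseudocount of 1 RPKM, a filter at 0.1 RPKM, no filter, or the spread tied to the mean value, and list genes numbered 2 with the length trend removed. For YKL-05-093 against PTH, the genes called numbered 1427 with no limit on the fold change, 98 with a pseudocount of 1 RPKM and 102 in 1 fit. In that comparison the members numbered 4 with no limit on the fold change and 1 with a pseudocount of 1 RPKM, without a filter or in 1 fit, and the list genes numbered 13 and 1 with no limit and a pseudocount of 1 RPKM. The cause of these shifts was not tested.

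Leaving out 1 library moved the genes called between 14 and 671 for PTH, 11 and 320 for YKL-05-093, and 0 and 155 for the difference. The members called then lay at 0 for PTH and between 0 and 1 in both other comparisons, and the list genes between 0 and 8, 0 and 1, and 0 and 2. The lone library of a group is assumed there to vary like the other group. Across genes, same-numbered libraries did not deviate together (correlations of their differences -0.03, -0.05 and -0.05). In all 3 groups replicate 2 had the higher mitochondrial share of reads (11.6% and 15%, 13.7% and 16.5%, 13.1% and 15.8% for replicates 1 and 2 of vehicle, PTH and YKL-05-093) and fewer genes above 0. With the replicate block the members called were 0, 1 and 2, as without it, and 196 genes were called for YKL-05-093 against PTH.

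The members whose sign turned were not called in those comparisons. For PTH, Adamts6 was at 0.026 with centred values, 0.029 with voom and 0.079 with the length trend removed, where Adamts9 was at 0.17 and Adamts10 at 0.013. For YKL-05-093, Adamts10 was at 0.041 with centred values and 0.059 with the length trend removed. Without 1 library, log2 changes with PTH ranged from -0.11 to 0.44 for Adamts4, -0.16 to 0.16 for Adamts6, -0.54 to 0.38 for Adamts9, -0.18 to 0.058 for Adamts10 and -0.49 to 0.14 for Adamts12. Those with YKL-05-093 ranged from -0.0054 to 0.40 for Adamts2, -0.48 to 0.068 for Adamts4, -0.67 to 0.25 for Adamts9, -0.071 to 0.051 for Adamts10 and -0.18 to 0.45 for Adamts12, and the difference for Adamts10 from -0.068 to 0.17.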

Other observations

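Adamts16, an ADAMTS protease outside the chosen 10 that was singled out after its values were seen, stayed under the filter of 0.5 RPKM and was not tested. It had 2 and 5 reads in vehicle, 13 and 16 with PTH, and 25 and 18 with YKL-05-093. These are 0.0143 and 0.0224 RPKM, 0.0755 and 0.105 RPKM, and 0.155 and 0.109 RPKM, and all 4 treated libraries were above both vehicle libraries.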
